A study of Mus musculus with 39 samples.

Results

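The genes that cut, protect and crosslink the extracellular matrix were followed in mouse epididymal adipose tissue under 5 diet regimens. The set was chosen by gene family name alone. It holds every non-control probe whose gene name is a matrix metalloproteinase (Mmp and a number), an ADAMTS protease (Adamts and a number), a tissue inhibitor of metalloproteinases (Timp and a number), Lox or a lysyl oxidase-like gene (Loxl and a number). This gave 50 genes with 73 probes, out of 29411 gene names and 40628 probes on the array. For each gene the probe brightest over the arrays was used, and 22 genes had more than 1 probe.

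Matrix metalloproteinases are zinc proteases that are mostly secreted as inactive precursors. Collagenases (Mmp1a, Mmp8, Mmp13) open fibrillar collagen, gelatinases (Mmp2, Mmp9) cut denatured and basement membrane collagen, and stromelysins (Mmp3, Mmp10) have a broad range of matrix substrates. Membrane-type enzymes such as Mmp14 act at the cell surface, and Mmp14 also activates the precursor of Mmp2. ADAMTS enzymes such as Adamts1, Adamts4 and Adamts5 cut large proteoglycans, while Adamts2, Adamts3 and Adamts14 remove the amino-terminal propeptide of procollagen. The 4 Timp proteins inhibit these proteases, and Lox and its relatives start the crosslinks of collagen and elastin. In adipose tissue this machinery is known for remodelling the matrix around fat cells while the depot expands.

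The mice were C57BL/6J, divided into the diets after weaning at 3 to 4 weeks of age. LFC mice received a control diet with 10% of calories from fat. HFC mice received a diet with more sucrose and 60% of calories from fat. KAL-1, an aqueous botanical formulation whose composition is not given in the sources used here, was added to HFC feeding at 5 µg (HF5), 20 µg (HF20) or 75 µg (HF75). The LFC diet was sampled at days 1, 6, 10 and 14 and at weeks 0, 3, 6, 9, 12, 15 and 18 (11 arrays), HFC at the same times without day 1 (10 arrays), and the 3 KAL-1 diets at weeks 3 to 18 (6 arrays each). Weeks were counted from day 14, but day 14 and week 0 are separate arrays. The study's methods mention that the experiment was repeated, and how an array relates to the repeats is not stated. There was 1 array for each diet and time point, so a time point has no replicate, and the time points of a diet serve as its replicates here. Whether the RNA on an array came from 1 animal or from several is not stated, and the p-values measure the spread between these arrays only.

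Many of the proteases lie side by side. On chromosome 9 of the mouse the genes Mmp13, Mmp12, Mmp1b, Mmp3, Mmp1a, Mmp10, Mmp8, Mmp27, Mmp20 and Mmp7 follow each other with no other protein-coding gene between them (Mmp1b was not analysed here). Adamts1 and Adamts5 are neighbours on chromosome 16, and Adamts15 and Adamts8 on chromosome 9. The promoters of the Mmp cluster were searched for the letters TGANTCA, which read the same on both strands and form the core of the site known to bind AP-1, the dimer of Fos and Jun proteins. RefSeq promoters (250 bases before to 50 after the start, build GRCm38.p6) were listed for 32 of the 50 genes. The letters occurred in 7 of the 9 cluster genes with a listed promoter (77.8%), all but Mmp8 and Mmp27, and in 0 of the 23 other members with one. A gene counted when any of its listed promoters held them. Mmp12 and Mmp7 each had 2 listed promoters, 1 with the letters, and that one is printed below. The middle letter was A in Mmp20 and C or G in the other cluster genes with a match. Over all genes with a listed promoter the share was 2425 of 27025 (8.97%). A match describes the letters and is not evidence of binding. The 100 bases before the start of 6 cluster genes whose values are described below are printed here, 5′ to 3′ on the plus strand, with a TGANTCA match in capitals. They are shown because these neighbours, all but Mmp8 sharing the letters, took different courses over the arrays.

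Mmp13, chr9:7272414-7272513: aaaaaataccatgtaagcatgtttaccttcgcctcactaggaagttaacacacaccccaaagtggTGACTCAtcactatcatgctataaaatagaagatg
Mmp12, chr9:7347274-7347373: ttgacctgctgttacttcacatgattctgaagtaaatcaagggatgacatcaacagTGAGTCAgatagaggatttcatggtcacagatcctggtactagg
Mmp3, chr9:7445722-7445821: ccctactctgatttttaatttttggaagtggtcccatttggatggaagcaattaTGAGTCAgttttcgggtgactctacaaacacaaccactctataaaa
Mmp10, chr9:7502242-7502341: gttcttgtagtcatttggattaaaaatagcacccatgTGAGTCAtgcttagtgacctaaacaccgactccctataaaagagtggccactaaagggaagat
Mmp8, chr9:7558329-7558428: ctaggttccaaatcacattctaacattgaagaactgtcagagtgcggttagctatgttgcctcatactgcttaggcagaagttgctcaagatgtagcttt
Mmp7, chr9:7691990-7692089: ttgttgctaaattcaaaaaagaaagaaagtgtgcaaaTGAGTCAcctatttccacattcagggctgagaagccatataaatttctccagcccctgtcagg

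The first base of the match lay 35 bases before the start in Mmp13, 44 in Mmp12, 46 in Mmp3 and 63 in both Mmp10 and Mmp7.

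A value in the following is the normalised signal, log2 of the processed signal minus the 75th percentile of the same array, so a value of 0 is the 75th percentile of its array. Levels of different genes come from different probes and are not compared. 2 arrays stood apart. On the LFC week 3 array 97.1% of spots were well above background, 16431 spots were marked as outliers and 17 of the 50 members were among them. On the HFC week 12 array these figures were 94.5%, 10531 and 8. The other 37 arrays had 53.7 to 79.6% of their spots above background by that flag, 21 to 387 outlier spots, and at most 1 member among these. Outlier spots were left out, and the values without these 2 arrays are given beside many of the results. Fat cell markers bore out that the tissue was fat. The median of 10 of them (Adipoq, Lep, Fabp4 and others) lay between 3.00 and 6.37 on the 39 arrays. They mark fat cells and not the depot, and week 6 arrays whose depot markers differed are described below. The median of 12 genes of the epididymis, the organ next to this depot, ran from −8.83 to 3.65 and exceeded 0 on 7 arrays (LFC day 1, day 10, day 14, week 3 and week 9, HF20 week 3 and week 6). The tissue was bulk, so fewer cells of a type and less RNA per cell cannot be told apart in any result below.

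Of the 50 genes, 43 were well above background on at least 20 of the 39 arrays. The 7 that were not were Mmp28 (18 arrays), Adamts20 (9), Adamts3 and Adamts13 (3 each), Mmp1a and Mmp21 (2 each) and Mmp20 (1). These counts include the 2 deviating arrays, on which nearly all spots carried this flag. Mmp10 reached 20 arrays only with both of them. The 1 array of Mmp20, both of Mmp21 and 1 of the 2 of Mmp1a were deviating ones. By role, the measured genes were 2 of 3 collagenases, both gelatinases, all 3 stromelysins (Mmp11 counted with them), all 6 membrane-type enzymes, 5 of 8 other metalloproteinases, 6 of 7 proteoglycan-cutting ADAMTS enzymes, 2 of 3 procollagen propeptidases, 8 of 9 other ADAMTS enzymes, all 4 inhibitors and all 5 lysyl oxidases. The inhibitor probes were bright throughout. Timp2 ranged from 3.80 (LFC week 3) to 7.80 (HF5 week 9) with a median of 5.87, and its spot was saturated on 10 arrays. Timp3 ranged from 1.97 to 6.68 with a median of 5.62 and was saturated on 7 arrays, so the highest values of both are compressed.

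**Figure D1:**
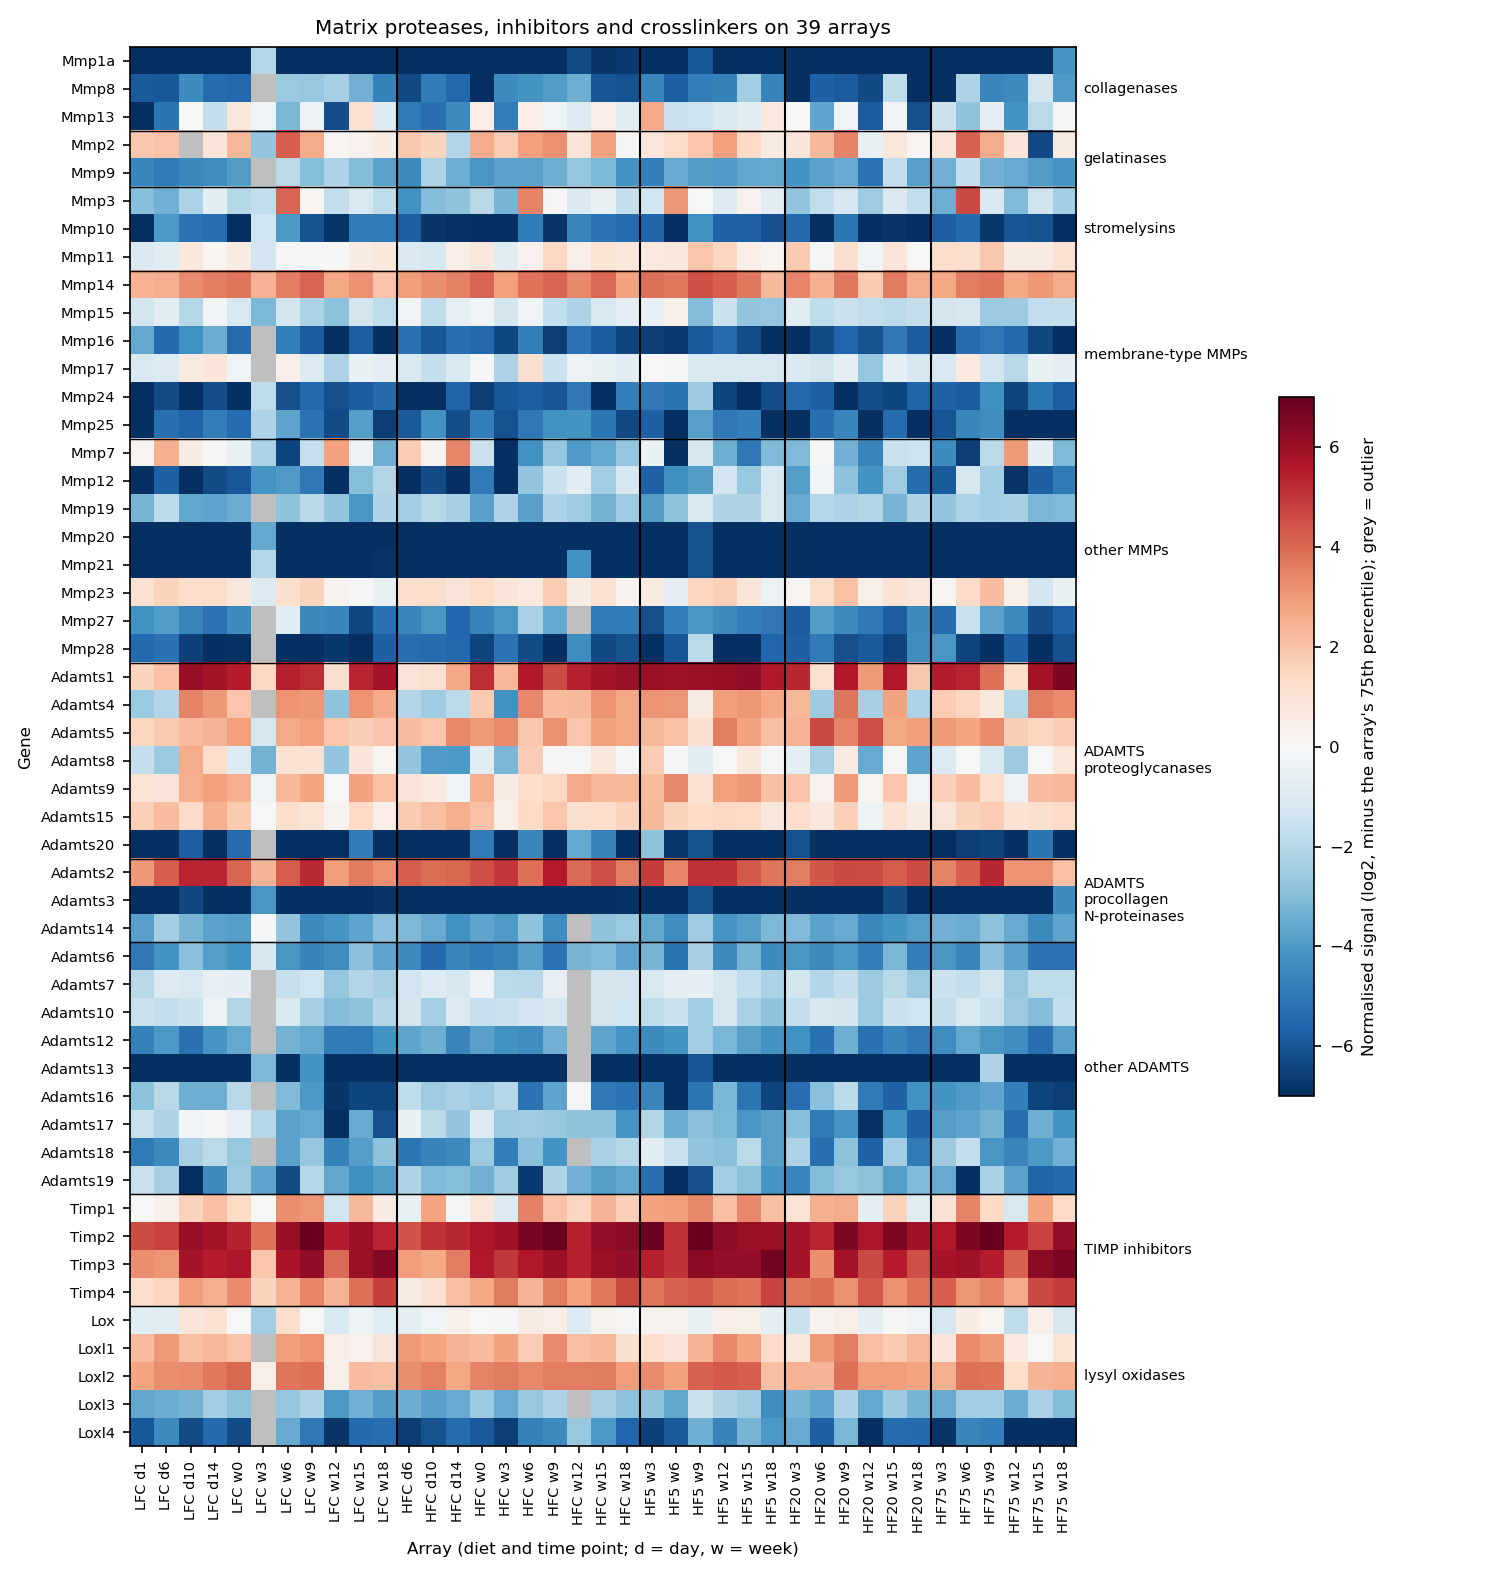
Normalised signal (log2, minus the 75th percentile of the array) of the 50 genes, in rows grouped by role, on the 39 arrays, in columns grouped by diet and ordered in time; the colour scale stops at 7 either side of 0 and grey marks outlier spots. The LFC week 3 array has 17 grey cells and the HFC week 12 array 8, and colours are to be read along a row, since probes differ in brightness.

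6 members set the same arrays apart, in a way that the diet labels do not give. Adamts1, which cuts proteoglycans, ranged from 0.91 (HFC day 6) to 6.53 (HF75 week 18), and no array lay between 2.97 and 3.84. The 12 arrays below that gap were LFC day 1, day 6, week 3 and week 12, HFC day 6, day 10, day 14 and week 3, HF20 week 6, week 12 and week 18, and HF75 week 12. They were thus 4 of 11 LFC, 4 of 10 HFC, 0 of 6 HF5, 3 of 6 HF20 and 1 of 6 HF75 arrays. The same 12 arrays were the 12 lowest for Adamts8 (−4.03 to −1.66 there, −1.12 to 2.59 elsewhere), Adamts9 (−0.39 to 0.95, and 1.04 to 3.39) and Timp3 (1.97 to 4.93, and 5.08 to 6.68). Adamts4 was an outlier spot on 1 of the 12 and lowest on the other 11 (−4.23 to −1.89, and 0.61 to 3.72), and so was Adamts18 (−5.68 to −4.43, and −4.16 to −0.80). Adamts4 and Adamts9 also cut proteoglycans, and Timp3 is the inhibitor known to bind to the matrix and to inhibit ADAMTS enzymes.

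The median signal of 8 immediate early genes, transcription factors such as Fos, Jun, Egr1 and Atf3 that cells switch on within minutes of a stimulus, was lowest on the same 12 arrays too (−0.31 to 4.17, and 4.85 to 6.38). For 6 of the 8 genes taken singly, all but Junb and Fosb, these arrays were the lowest. The median of 8 endothelial markers was also lowest on them (1.33 to 2.93, and 3.10 to 4.86). Their part in the Adamts and Timp3 values was not tested, and these arrays were picked by their values, so no group of them was averaged or tested. None of Adamts1, Adamts4, Adamts8, Adamts9, Adamts18 and Timp3 is a gene of the Mmp cluster.

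**Figure D2:**
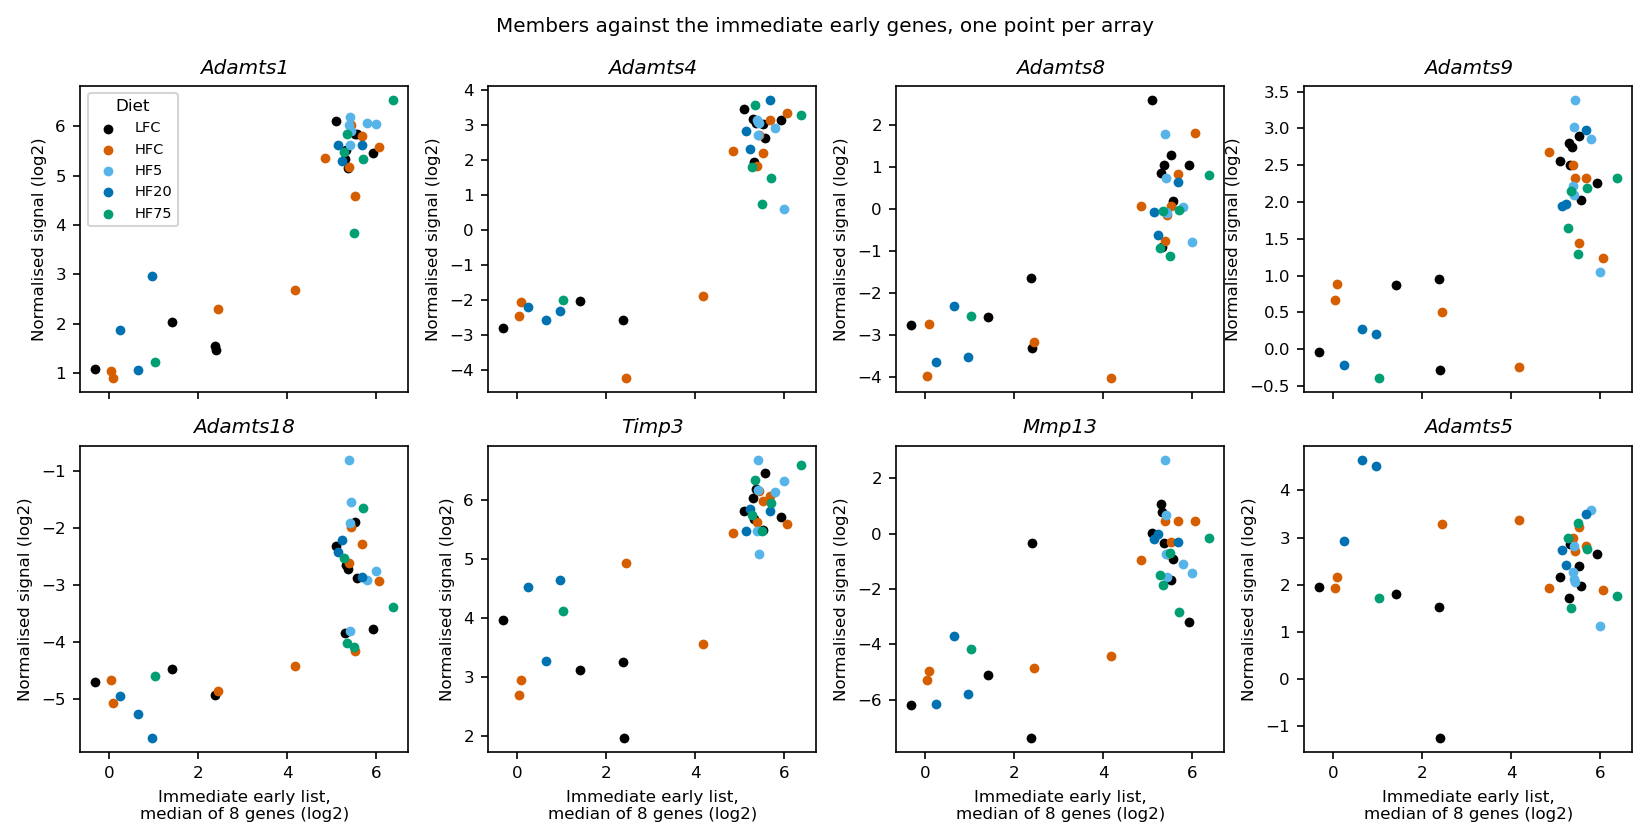
Normalised signal (log2) of 8 members on the vertical axis against the median normalised signal of 8 immediate early genes on the horizontal axis, with 1 point per array coloured by diet. Adamts1, Adamts4 and Adamts8 split into 12 or 11 low arrays and 27 others, while Mmp13 and Adamts5 are shown for members without a gap.

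Mmp3 stood apart at week 6. The LFC, HFC, HF5 and HF75 arrays of week 6 had values between 3.10 and 4.64, and the other 35 arrays lay between −4.26 and 0.29, the HF20 week 6 array at −1.71 among them. No other member was outside the range of all other arrays on these 4. The median of 10 mesothelial markers (Msln, Upk3b, Wt1, keratins and others, typical of the lining of visceral fat) was −7.34 to −5.80 on the same 4 arrays and −3.74 to 1.62 on all others. The median of 6 genes typical of subcutaneous depots was −2.47 to −1.92 there and −7.04 on the HF20 week 6 array. Over the other 35 arrays it ran from −7.92 to −2.06. The ranges overlapped only through the deviating HFC week 12 (−2.06) and LFC week 3 (−2.11) arrays. The next highest array was HF5 week 9, at −4.66. Taken singly, the mesothelial markers Krt8, Krt18, Krt19 and Bnc1 overlapped the other 35 arrays. Krt18 was at −2.21 to 2.57 on the 4 arrays and at −0.86 to 4.62 on the others. Of the 6 subcutaneous genes only Shox2 did not overlap (−5.29 to −3.52, and −9.18 to −5.67), with the deviating arrays among the others. The labels call all 5 week 6 arrays epididymal, and the part of these markers in the Mmp3 value was not tested.

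The first comparison set HFC against LFC at the 10 time points both have, to ask how these genes differed on the richer diet. No member passed an adjusted p of 0.05 in limma, with the time point as a block, and neither did any of the 29167 probes tested, so the share called was 0%. At an unadjusted p under 0.05 there were 4 of 44 tested members (3 higher and 1 lower on HFC) beside 3.05% of all probes. The methods' t-test, made on the same pairs, gave 5 members at this threshold and 0 after Benjamini-Hochberg adjustment. The member differences had a median of 0.13 (log2), beside 0.026 over all probes, and 25 were above 0. With normexp background correction 36.4% of members were higher in place of 56.8%, and without the 2 deviating arrays the median was −0.012.

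The member with the smallest p was Mmp8, the collagenase stored in neutrophil granules. Its LFC values ranged from −5.95 to −2.31 with a median of −4.55 and its HFC values from −7.20 to −3.44 with a median of −5.22. HFC was the lower in all 9 pairs of arrays in which both were measured, although the 2 ranges overlapped over the time course. The difference was −1.20 ± 0.26 (log2, SE; p = 0.00077, adjusted p = 0.998 in limma), and −1.21 without the 2 deviating arrays. It depended on the background correction, at −0.46 with normexp. Markers of neutrophils moved with it, since all 8 were lower on HFC, 5 of them at an unadjusted p under 0.05, with a median difference of −1.06. S100a9, a calcium-binding protein of neutrophils, differed by −1.19. The median of the 8 markers ran from −3.57 to 0.68 over the LFC arrays and from −3.74 to −0.24 over the HFC arrays. All 8 tested markers of the epididymis were lower too. The part of either in the Mmp8 value was not tested.

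The membrane-type enzyme Mmp15 was higher on HFC in 9 of 10 pairs (0.64 ± 0.21; p = 0.011, adjusted p = 0.998), and 0.17 higher (p = 0.47) with normexp. The epithelial enzyme Mmp28 was higher in 7 of 9 pairs, by 0.97 ± 0.31. It was well above background on 7 HFC and 3 LFC arrays, just the 10 arrays that the test required, so it was tested only through the diet where it is higher, and its difference is a description although it stands among the 3 members counted as higher. The difference turned to −0.13 with normexp. Mmp14, the surface enzyme that activates Mmp2, was 0.36 ± 0.16 higher (8 of 10 pairs; p = 0.046). Its second probe was at −0.021, and the mean of both probes at 0.23 (p = 0.59).

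No other member had an unadjusted p under 0.05, though some differences exceeded their standard error. The gelatinases were at 0.44 ± 0.62 for Mmp2 and 0.013 ± 0.36 for Mmp9. Mmp3 was at −0.45 ± 0.28, Mmp13 at −0.43 ± 0.89, the macrophage elastase Mmp12 at 0.72 ± 0.94 and Mmp19 at 0.20. The proteoglycan-cutting enzymes were at −0.44 ± 0.68 for Adamts1, 0.72 ± 0.42 for Adamts5 and 0.41 ± 0.19 for Adamts15, and Adamts2 was at 0.27. All of these had an adjusted p of 0.998. The 4 inhibitors lay between −0.16 (Timp4) and 0.18 (Timp2), with Timp1 at −0.02 and Timp3 at −0.14. The 5 lysyl oxidases were all above 0 and none had an unadjusted p under 0.05, among them Lox at 0.18, Loxl1 at 0.42 ± 0.30 and Loxl2 at 0.68 ± 0.43. Without the 2 deviating arrays Loxl2 came to 0.055, Lox to −0.075, Mmp2 to −0.20 and Adamts2 to −0.12.

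**Figure D3:**
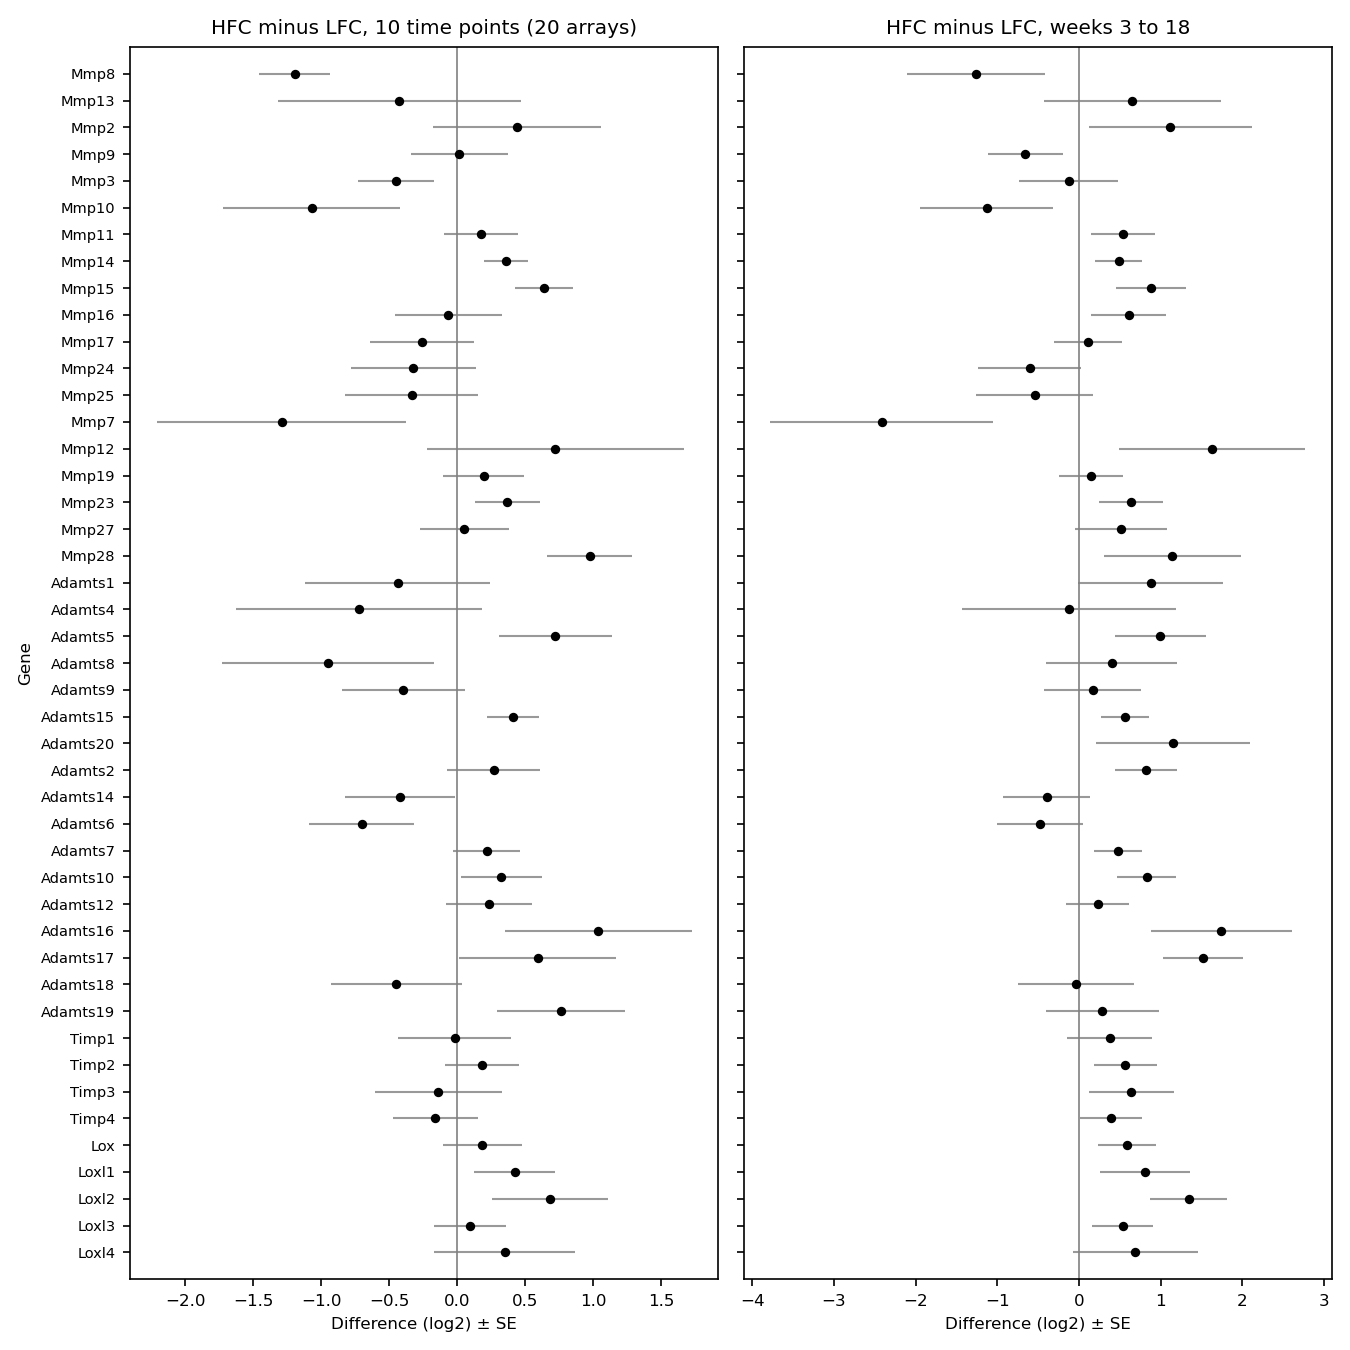
Difference HFC minus LFC in normalised signal (log2) with its standard error for each tested member, on the left over the 10 shared time points (44 members) and on the right over weeks 3 to 18 (45 members). On the right 34 of the 45 points lie above 0, and no member passed the adjusted threshold in either panel.

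Over weeks 3 to 18, the HFC and LFC diets were compared in 1 fit of all 30 arrays of the 5 diets. Again no member and no probe of 31449 was called (0%), and 5 of 45 members, all higher on HFC, had an unadjusted p under 0.05 beside 2.31% of probes. Their adjusted p was 1.0. Of the members 34 were higher and 11 lower, and the median was 0.53 beside 0.063 over all probes. With normexp 55.6% in place of 75.6% were higher. Without the 2 deviating arrays the median was 0.28, and 2 members had an unadjusted p under 0.05.

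Loxl2, which crosslinks collagen, was steady on HFC from week 3 to 18, from 2.95 to 3.63 with a median of 3.57. On LFC it ranged from 0.41 to 3.83 with a median of 2.13, low at weeks 3 and 12 and high at weeks 6 and 9. The difference was 1.35 ± 0.47 (p = 0.0087, higher in 4 of 6 pairs), and 0.88 (p = 0.090) without the 2 deviating arrays. It was 3.21 at week 3 and 3.17 at week 12. Of the other 2 Loxl2 probes 1 was at 1.79 and 1 at −0.074.

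Adamts17, an ADAMTS enzyme known from an inherited connective tissue disorder, was higher on HFC in 5 of 6 pairs (1.52 ± 0.49; p = 0.0051). Its LFC values ran from −7.52 to −2.02 with a median of −3.67 and its HFC values from −4.11 to −2.48 with a median of −2.73. The week 12 pair alone differed by 4.69, and without that week the difference was 0.88. With normexp it was 0.017. The other members at an unadjusted p under 0.05 were Adamts2, which trims procollagen (0.82 ± 0.38, 5 of 6 pairs), Mmp15 (0.88 ± 0.43, 6 of 6) and Adamts10, which acts on fibrillin microfibrils (0.83 ± 0.36, 3 of 4, and 0.24 with normexp). Mmp15 is named in this window after its values were seen. Adamts2 came to 0.64 (p = 0.13) without the 2 deviating arrays. With the 2 probes of each gene averaged, the limma p was 0.155 for Adamts2 and 0.146 for Adamts10.

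All 5 lysyl oxidases and all 4 inhibitors were above 0 in this window, with medians of 0.69 and 0.48. Lox was at 0.59 ± 0.36, Loxl1 at 0.81 ± 0.55, Timp1 at 0.38 ± 0.52, Timp2 at 0.57 ± 0.39, Timp3 at 0.64 and Timp4 at 0.39. Timp1 and Timp3 turned to −0.088 and −0.085 without the 2 deviating arrays. Mmp14 was higher on HFC in 6 of 6 pairs, by 0.49 ± 0.29. Mmp9 was lower in 5 of 5, by −0.66 ± 0.46, and Mmp3 was at −0.13 and Mmp19 at 0.15. Mmp13 (0.65 ± 1.08), Mmp2 (1.12 ± 1.00) and Adamts1 (0.88 ± 0.89) had errors near the size of the difference or above it. The errors were smaller for Adamts5 (1.00 ± 0.56; p = 0.088 in limma) and Adamts15 (0.57 ± 0.30; p = 0.069). Without week 3, the week of the deviating LFC array, Adamts5 was at 0.29, Mmp2 at 0.44, Timp4 at 0.056 and Adamts2 at 0.47.

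The substrates of these enzymes were measured alongside. Of 16 matrix proteins (collagens, elastin, fibronectin, proteoglycans), 15 were higher on HFC over weeks 3 to 18, 9 of them at an unadjusted p under 0.05, with a median of 0.93. On LFC the median signal of the 16 was −0.09 at week 3 (the deviating array), 1.47 at week 12 and 2.72 to 4.15 at the other weeks. On HFC it was 3.00 to 4.45, and lower than on LFC at week 6 (3.08 against 3.83). The HFC array of week 12 is the other deviating one. Col6a3, a chain of the collagen around fat cells, differed by 1.27. Of 13 genes of collagen processing 12 were higher, 2 at that threshold, and Fkbp10, a collagen chaperone, differed by 0.79. Of 16 activators and other inhibitors 13 were higher and 0 passed that threshold. No probe of these lists passed the adjusted threshold. All 10 fibroblast and progenitor markers and all 10 macrophage markers were higher, 3 and 1 of them at an unadjusted p under 0.05, and all 8 neutrophil markers were lower, with a median of −1.76. The part of these markers in the member values was not tested.

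Taking the mean of the 4 high fat diets against LFC over weeks 3 to 18 used the same 6 LFC arrays, so it is not a second test of the same question. No member and 0% of probes were called, and 7 of 45 members (5 higher, 2 lower) had an unadjusted p under 0.05, beside 6.1% of probes. The member median was 0.35 beside 0.038 over all probes. Of the members 68.9% were higher, and 40% with normexp, a setting that moved the median over all probes to −0.29. Loxl2 was 1.03 ± 0.37 higher (p = 0.011, adjusted p = 0.758, 5 of 6 weeks), and Mmp11, a metalloproteinase that fibroblasts around fat cells express, 0.81 ± 0.31 (p = 0.016). Mmp10 was lower, at −1.53 ± 0.64 (p = 0.026). Its LFC week 3 value of −1.39 was the highest of all arrays. Without the 2 deviating arrays these were 0.68, 0.55 and −0.97, and 2 members had an unadjusted p under 0.05.

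Whether the diet difference itself changed with time was tested on the 10 differences HFC minus LFC, weeks 3 to 18 against days 6, 10 and 14 and week 0. No member and 0% of probes passed the adjusted threshold. At an unadjusted p under 0.05 there were 8 of 44 members (7 higher late, 1 lower) beside 5.14% of probes. The member median was 0.88 and that of all probes 0.15, and 34 members were above 0 and 10 below. Without the 2 deviating arrays the member median was 0.69.

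The smallest p belonged to Adamts1, where HFC minus LFC was −2.42 early and 0.88 late, a change of 3.30 ± 1.06 (p = 0.0097, adjusted p = 0.841). The early value rested on day 10 (−5.06) and day 14 (−3.16), and the week 12 pair added 4.27. These are pairs in which 1 of the 2 arrays is among the 12 low ones described above. Adamts4 (3.64), Adamts8 (3.38) and Timp3 (1.95) also had an unadjusted p under 0.05, and so did 5 of the 8 immediate early genes (all 8 above 0, median 2.90) and 4 of the 8 endothelial markers. Timp4, the inhibitor enriched in adipose tissue, went from −0.99 to 0.39 (1.38 ± 0.52; p = 0.021), and Mmp9 the other way, from 0.89 to −0.69 (−1.58 ± 0.57; p = 0.018). Of the substrates 15 of 16 were higher late, 4 at an unadjusted p under 0.05, led by elastin (Eln, 2.59).

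Change over time was then taken within a diet, late (weeks 3 to 18) against early (up to week 0). Time runs with the age of the mice and with the scan date, and scanning fell into separate periods for days 1 to 14 and for weeks 0 to 18. These cannot be told apart, so each difference below is one of time, age and scan together. Within LFC, 149 of 30418 probes were called (0.49%), and no member was. At an unadjusted p under 0.05 there were 10 of 43 members (4 higher late, 6 lower) beside 5.52% of probes. The member median was −0.13 beside −0.087 for all probes. Of the members 46.5% were higher, and 58.1% with normexp, which moved the median over all probes to 0.31.

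Mmp8 was the member with the smallest p within LFC. It ranged from −5.95 to −4.38 on the 5 early arrays and from −4.71 to −2.31 on the 5 late arrays measured, a difference of 2.29 ± 0.51 (p = 0.00084, adjusted p = 0.114), and the ranges overlapped only at day 10 and week 18. Mmp9, the gelatinase that neutrophils and macrophages carry, ran from −4.96 to −3.90 early and from −3.75 to −1.86 late with no overlap, a difference of 1.70 ± 0.42 (p = 0.0017, adjusted p = 0.184). All 8 neutrophil markers were higher late within LFC, 6 of them at an unadjusted p under 0.05, with a median of 2.52, and all 6 mast cell markers were higher. The part of these cells in the Mmp8 and Mmp9 values was not tested.

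Adamts17 ran the other way. The early LFC values lay between −2.09 and −0.09 and the late ones between −7.52 and −2.02, a difference of −3.54 ± 0.87 (p = 0.0014, adjusted p = 0.157). It was −4.02 without the LFC week 3 array. With week 0 as the only early array, scanned in the same period as the later weeks, the differences were 2.35 for Mmp8 (p = 0.052), 1.14 for Mmp9 (p = 0.24) and −3.87 for Adamts17 (p = 0.055). Among the substrates 14 of 16 were lower late within LFC, 4 at an unadjusted p under 0.05, led by Eln at −3.38.

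Within HFC no member and 0% of 29397 probes were called, although 17.3% of probes had an unadjusted p under 0.05, and 11 of 44 members did (8 higher late, 3 lower). The member median was 0.31 beside 0.021 over all probes. Median scaling put 56.8% in place of 70.5% of members above 0. Mmp7, an enzyme of epithelia, was between −1.55 and 3.43 on the 4 early arrays and between −8.55 and −2.70 on the 6 late ones, with no overlap. The difference was −5.27 ± 1.21 (p = 0.0012, adjusted p = 0.207), and it was −2.75 (p = 0.19) with week 0 as the only early array. On LFC, Mmp7 reached 2.81 at week 12 and on HF75 2.96 at week 12, where the mesothelial marker medians were 0.20 and 0.41. The HFC week 3 array held the lowest Mmp7 value of all arrays (−8.55) beside a mesothelial median of 1.39. Within HFC all 10 mesothelial markers were lower late, 4 of them at an unadjusted p under 0.05. Their median ran from −0.15 to 1.62 on the 4 early and from −5.96 to 1.39 on the 6 late HFC arrays, and their part in the Mmp7 value was not tested.

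All 4 inhibitors had higher late means within HFC, short of the adjusted threshold. Timp3 went from a median of 3.25 on the early arrays to 5.78 late (1.98 ± 0.53; p = 0.0032, adjusted p = 0.208), and Timp4 from 1.55 to 3.60 (1.88 ± 0.52; p = 0.0039, adjusted p = 0.210). Early Timp4 values were 0.52 at day 6, 1.01 at day 10, 2.09 at day 14 and 2.73 at week 0, and the late ones ranged from 2.37 to 4.64. With week 0 as the only early array the differences were 0.069 (p = 0.90) for Timp3 and 0.74 (p = 0.36) for Timp4. The immediate early genes were higher late in 8 of 8, and 6 had an unadjusted p under 0.05.

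Mmp12, which macrophages secrete and which degrades elastin, was well above background on 1 of 5 early and 5 of 6 late LFC arrays, and on 1 of 4 early and 5 of 6 late HFC arrays. Within HFC it went from a median of −7.01 to −1.97 (4.16 ± 1.40; p = 0.013) and within LFC from −6.25 to −4.05 (2.35 ± 1.02; p = 0.038). The 5 of 6 late arrays include the deviating array of each diet. At week 3 HFC was the lower by −4.34, and at week 12 the higher by 7.97. Each of these pairs sets a deviating array (LFC week 3, HFC week 12) against an array not well above background for Mmp12. The HFC minus LFC difference over weeks 3 to 18 was 1.63 ± 1.14, with HFC higher in 5 of 6 pairs. It was 0.36 without week 12 and 2.82 without week 3. Trem2, a receptor of macrophages that take up lipid, was 1.08 higher on HFC in the same weeks. All 10 of 10 macrophage markers were higher, 1 of them at an unadjusted p under 0.05. At week 3, when Mmp12 was lower on HFC, the macrophage median was 1.37 on HFC and −0.98 on the deviating LFC array. The part of these markers in the Mmp12 value was not tested.

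**Figure D4:**
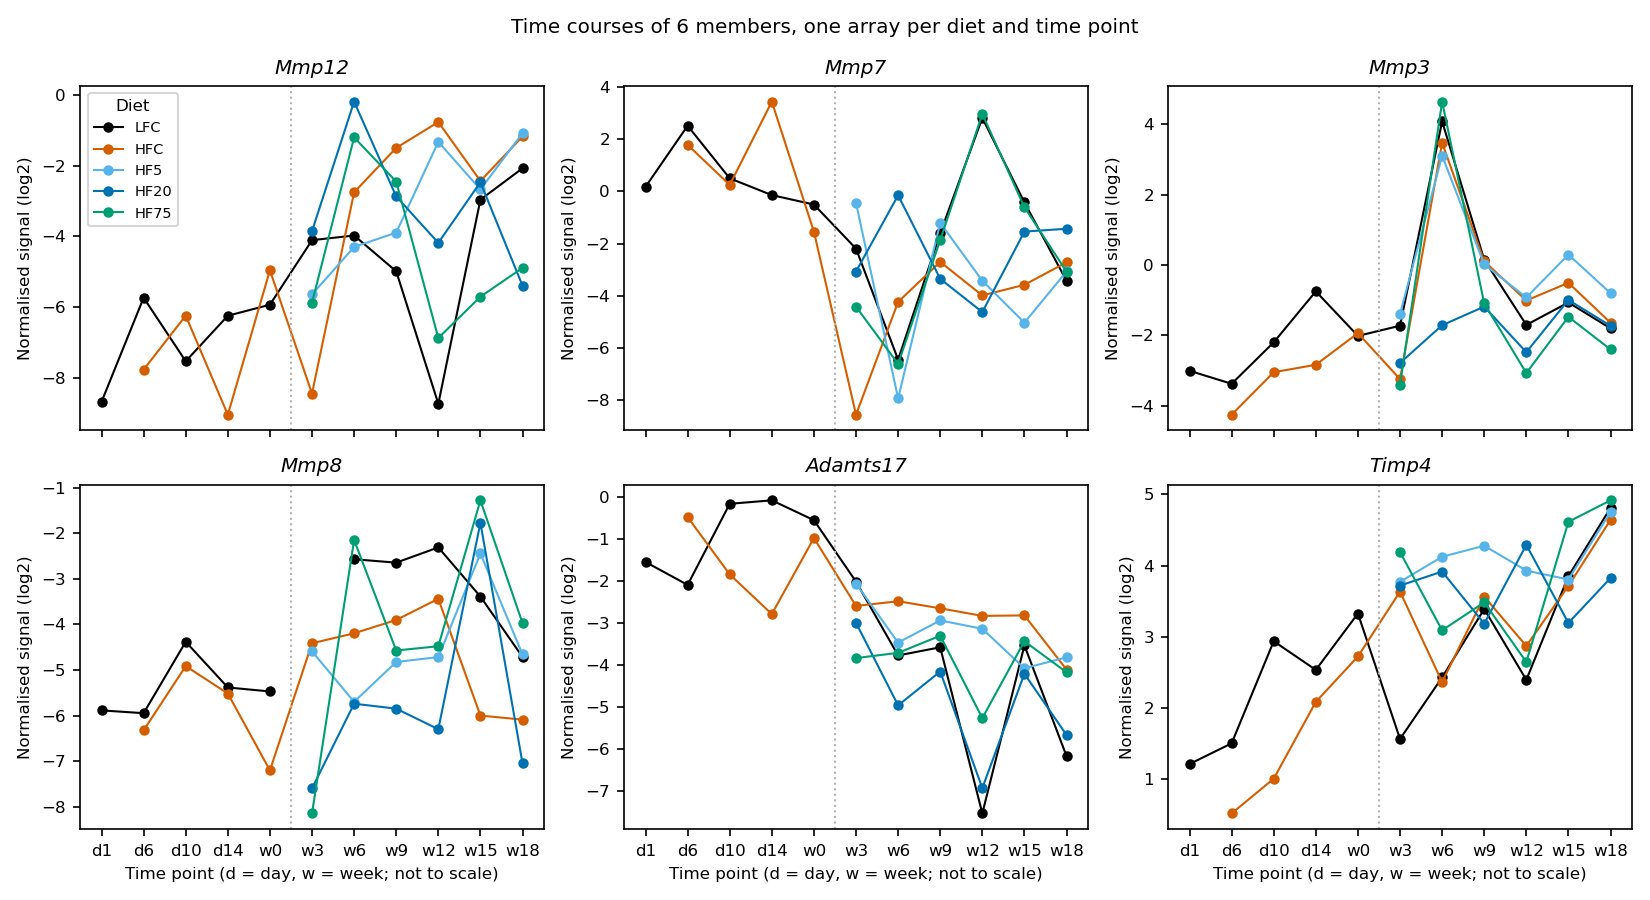
Normalised signal (log2) of Mmp12, Mmp7, Mmp3, Mmp8, Adamts17 and Timp4 on each array, by time point on the horizontal axis (evenly spaced, not to scale; a dotted line parts week 0 from week 3) and by diet in colour, with 1 array per point and no error. Mmp7 on HFC is at or above −1.55 up to week 0 and at or below −2.70 from week 3, and Mmp3 exceeds 3 only at week 6.

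A straight trend over weeks 3 to 18 in all 5 diets called no member and 0% of probes, with 2 of 45 members at an unadjusted p under 0.05 beside 3.19% of probes. Adamts17 had a slope of −0.11 ± 0.045 per week (p = 0.017, adjusted p = 1.00) and Timp4 of 0.073 ± 0.032 per week (p = 0.033), followed by Timp3 with 0.076 (p = 0.096). The Timp4 slope was 0.032 without week 18, and without the 2 deviating arrays no member was under 0.05.

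The 3 doses of KAL-1 were each compared with HFC at the same 6 weeks. They share the 6 HFC arrays, so their values are given side by side and not correlated. No member and 0% of the 31449 probes were called for any dose. At an unadjusted p under 0.05, HF5 had 2 of 45 members (1 higher, 1 lower) beside 3.42% of probes, HF20 had 3 (all lower) beside 4.85%, and HF75 had 3 (all lower) beside 1.5%. The member counts moved with the weeks included. HF20 had 15 without week 3 and 1 without week 12, and HF75 had 8 without week 6 and 0 without week 12 or week 15. The member medians were 0.027, −0.44 and −0.31, against −0.026, −0.068 and −0.014 over all probes. Of the members 55.6%, 20% and 22.2% were higher than on HFC. These shares depended on the scaling, at 75.6%, 40% and 44.4% with the array median in place of the 75th percentile, a change that moved the median over all probes to 0.32, 0.24 and 0.34. With normexp HF75 had 11.1%.

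Adamts17 was lower than on HFC in 6 of 6 weeks at both higher doses. HFC values lay between −4.11 and −2.48, HF20 values between −6.92 and −3.00 with a median of −4.58, and HF75 values between −5.26 and −3.30 with a median of −3.77. HF20 minus HFC was −1.90 ± 0.49 (p = 0.00075, adjusted p = 0.780) and HF75 minus HFC −1.04 ± 0.49 (p = 0.046, adjusted p = 1.00). HF5, with a median of −3.30, was lower than HFC in 4 of 6 weeks (−0.34 ± 0.49; p = 0.50 in limma). The range of each dose overlapped that of HFC. The mean of the 3 doses was −1.09 ± 0.40 (p = 0.012, 6 of 6 weeks), the only member of that comparison at an unadjusted p under 0.05, beside 1.75% of probes. Leaving out the 2 deviating arrays put HF20 at −1.58 (p = 0.0023), HF75 at −0.72 (p = 0.13) and the mean at −0.77 (p = 0.057). With normexp HF20 minus HFC was −0.91 (p = 0.057) and the mean −0.64, and with quantile normalisation HF20 was at −1.21, HF75 at −0.43 and the mean at −0.46.

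Timp1, a secreted inhibitor that fibroblasts, fat cells and macrophages make, was highest on HF5. Its HF5 values ran from 2.09 to 3.39 with a median of 2.87, HFC from −0.98 to 3.52 with a median of 1.82, and HF75 from −1.12 to 3.47 with a median of 1.37. HF5 minus HFC was 1.10 ± 0.52 (p = 0.045, adjusted p = 0.954, higher in 5 of 6 weeks), and 0.56 without week 3, where HFC was at −0.98. HF75 minus HF5 was −1.30 ± 0.52 (p = 0.020, adjusted p = 0.842, lower in 5 of 6). With both Timp1 probes averaged, the limma p was 0.12 for HF5 minus HFC and 0.040 for HF75 minus HF5. Adamts16 was lower on HF5 than on HFC in 6 of 6 weeks (−1.79 ± 0.81; p = 0.038), but the HFC week 12 value of −0.16 was its highest on any array, and without the 2 deviating arrays the difference was −1.12 (p = 0.16). With normexp it was −0.77. Adamts18 followed on HF5, at 1.20 ± 0.67 (p = 0.087).

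On HF20 the other 2 members were Adamts20 and Mmp3. Adamts20 was well above background on 0 of 6 HF20 and 3 of 6 HFC arrays, which gives a bound of at least 2.43-fold higher on HFC (difference −2.24 ± 0.89, adjusted p = 0.780). The brightest HFC value, −3.57, came from the deviating week 12 array, and the bound includes it. In limma the unadjusted p was 0.020, and 0.095 without the 2 deviating arrays. Adamts20 reached just the 6 of 30 arrays that the test required, with 3 of them on HFC, so its difference too is a description. With normexp the difference was −0.45. Mmp3 differed by −1.34 ± 0.61 (p = 0.037), which rested on week 6, when HFC stood at 3.47 and HF20 at −1.71. Without week 6 it was −0.57. Of the immediate early genes all 8 were lower on HF20, 6 at an unadjusted p under 0.05, with a median of −1.99. Of the collagen processing genes 12 of 13 were lower, 3 at that threshold, led by Plod2, a collagen lysyl hydroxylase, at −0.92. All 11 tested epididymis markers were higher on HF20, with a median of 2.61. The part of these in the HF20 values was not tested.

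On HF75 the members with the smallest p besides Adamts17 were the crosslinker Loxl4 and the procollagen propeptidase Adamts2. Loxl4 ranged from −7.71 to −4.65 on HF75 with a median of −6.94, and from −6.59 to −2.63 on HFC with a median of −4.60. It was well above background on 3 of 6 HF75 and 4 of 6 HFC arrays, so the low ends of both ranges are near background. The highest HFC value is from the deviating week 12 array. The difference was −1.72 ± 0.73 (p = 0.027, lower in 5 of 6 weeks), −1.09 (p = 0.12) without the 2 deviating arrays, and −0.87 with normexp. Adamts2 ranged from 2.06 to 5.30 on HF75 and from 3.60 to 5.58 on HFC, a difference of −0.86 ± 0.38 (p = 0.035, lower in 5 of 6 weeks), −0.93 without these arrays, and −0.46 with median scaling. With all probes of a gene averaged, the limma p was 0.082 for Loxl4 and 0.013 for Adamts2. Of the 5 lysyl oxidases all were lower than on HFC, and of the 16 substrates 14, where fibronectin (Fn1) at −1.21 was the 1 substrate with an unadjusted p under 0.05.

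The highest dose was also set against the lowest. HF75 and HF5 share no array and neither holds a deviating one. No member and 0% of probes were called, and 4 of 45 members, all lower on HF75, had an unadjusted p under 0.05 beside 5.81% of probes. Besides Timp1 these were Loxl4 (−1.76 ± 0.73; p = 0.024), Adamts2 (−0.87 ± 0.38; p = 0.034) and Mmp14 (−0.63 ± 0.29; p = 0.038). Loxl4 was well above background on 3 of 6 HF75 and 4 of 6 HF5 arrays. With all probes of a gene averaged, the limma p was 0.23 for Adamts2, 0.065 for Loxl4 and 0.040 for Timp1. The member median was −0.36 beside 0.007 over all probes. Of the members 24.4% were higher on HF75, and 13.3% with normexp. Of the 16 activators and other inhibitors 13 were lower, 4 at an unadjusted p under 0.05, led by Furin, the convertase that activates membrane-type metalloproteinases, at −1.40. For Adamts17 the differences from HFC were not in the order of dose, at −0.34, −1.90 and −1.04 for 5, 20 and 75 µg.

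**Figure D5:**
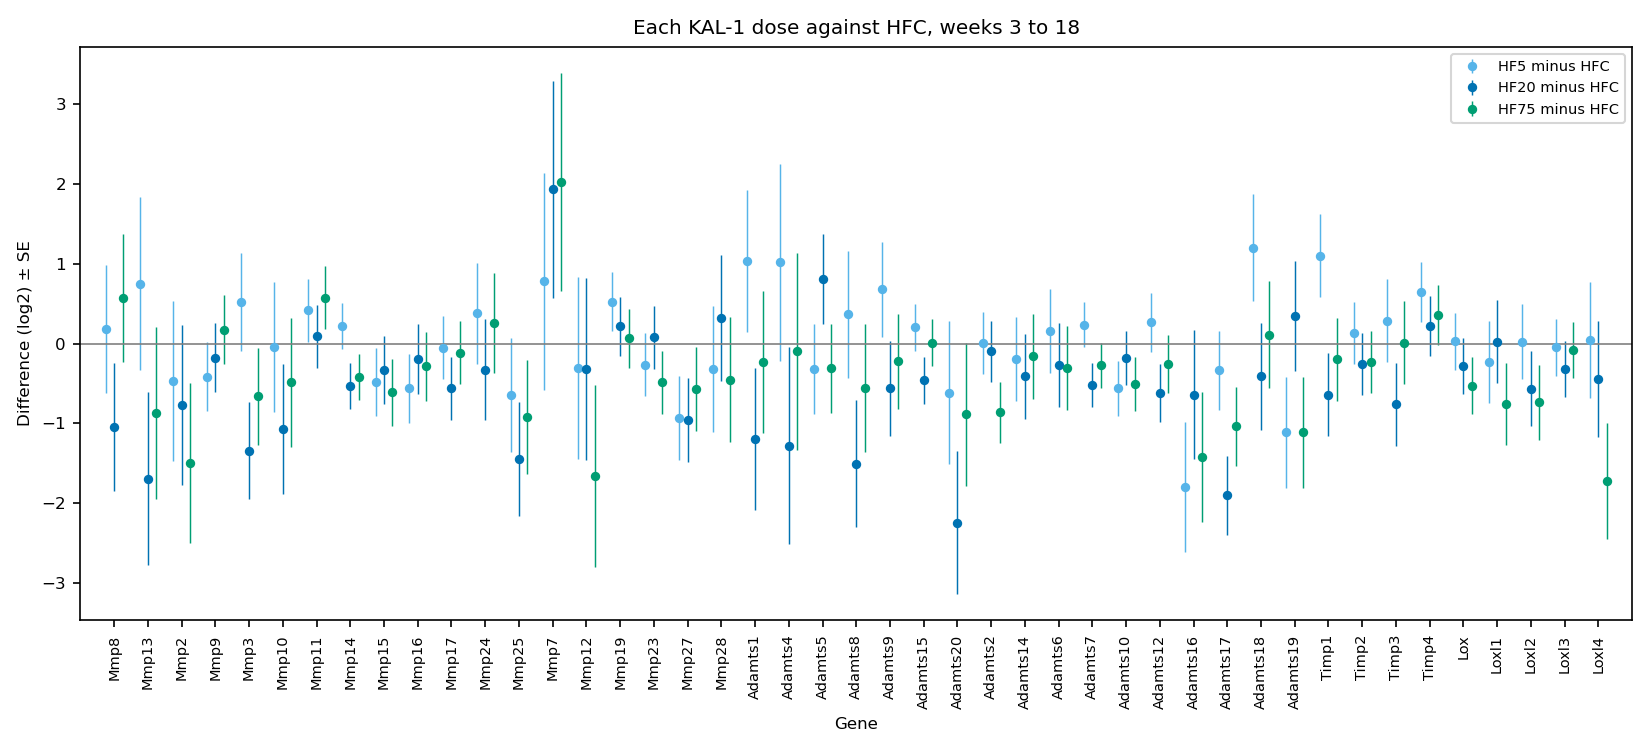
Difference from HFC in normalised signal (log2) with its standard error for each tested member over weeks 3 to 18. HF5, HF20 and HF75 are points set side by side for each gene and coloured by dose. Of 45 members 25 lie above 0 on HF5, 9 on HF20 and 10 on HF75, no member passed the adjusted threshold, and the doses share the HFC arrays.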

How the data were processed

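RNA of mouse epididymal adipose tissue was measured on 39 one-colour Agilent arrays, on 32 slides. Per the file headers, the deposited intensity values had been background-subtracted and detrended within each array by Feature Extraction 10.5.1.1 and annotated on mm9, with no scaling between arrays. A table in which the authors deposited log2 fold changes of their own was not used. Here the log2 of the processed signal minus the array's 75th percentile was taken, outlier spots were set to missing and spots of a probe were averaged. Arrays of a time point were mostly scanned on 1 of 13 dates; LFC week 3 had a date of its own and week 6 had 2.

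Probes well above background on 10 of 20 arrays (HFC against LFC), 6 of 30 (weeks 3 to 18), 5 of 11 (LFC) or 5 of 10 (HFC) were tested with limma 3.58.1 in R 4.3.3 (statmod 1.5.0, and data.table at version 1.17.8), two-sided, with Benjamini-Hochberg adjustment over all probes tested and a threshold of 0.05. Time point was a block between diets. The fit was checked on simulated data. Where a probe was not well above background in a group, a fold was given as a bound, the mean of the brighter group against that of the dim group with each dim array set to the higher of its lowest detected signal and the probe's own. Tables and figures used Python 3.11.15, pandas 2.3.3, numpy 2.4.6 and matplotlib 3.10.9. The number of arrays limits the precision.

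The members and gene lists were chosen with earlier results of these data known. Named are, per comparison, the 3 members with the smallest p where none passed the threshold, 18 members fixed by name for HFC against LFC, and the gene with the smallest p of a partner or marker list, of which 1 is not reported here. Mmp15 and Mmp14 for weeks 3 to 18 and HF75 against HF5, Adamts4, Adamts8 and Timp3 for the change of the diet difference, Mmp12 within a diet, and the members described array by array were named after their values were seen. Alternatives were other scalings, background corrections, filters, probe averaging, array weights, blocks and left-out arrays or time points. Gene order and promoters came from RefSeq tables of GRCm38.p6.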

Additional observations from a re-analysis of the deposited data

Results flagged for a closer look

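In HFC, HF5, HF20 and HF75, the diets with at most 10 arrays, 18 members were searched for 1 array far from the rest of its group, by Dixon's criterion. LFC, with 11 arrays, was not searched. Of 72 groups tested 7 gave such an array, where chance gives about 1 in 20. Mmp2 on HF75 was at −6.32 at week 15, with the next lowest at 0.63. Mmp9 on HF75 was at −1.69 at week 6, with the next highest at −3.34, and on HF5 at −4.87 at week 3, with the next lowest at −3.98. Mmp3 on HF75 was at 4.64 at week 6, with the next highest at −1.09. Mmp14 on HF5 was at 2.25 at week 18, with the next lowest at 3.70. Adamts2 on HF20 was at 3.57 at week 3, with the next lowest at 4.25. Loxl2 on HF20 was at 3.88 at week 9, with the next highest at 2.95.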

How the results depend on the processing

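Over 233 pairs of a comparison and an alternative, 228 called no member at an adjusted p of 0.05. Late against early within LFC gave 1 with array weights (Adamts17 −3.92, adjusted p = 0.0127) and 0 to 1 with a time point left out (Mmp8 2.69, adjusted p = 0.0339, without week 18). Within HFC it gave 1 with median scaling (Mmp7 −5.53), 15 with array weights and 0 to 3 with a time point left out (Mmp7 −6.11, Timp3 2.62 and Timp4 2.26 without week 0). Called probes within HFC numbered 7014 with array weights, 825 without week 0 and 41 with median scaling. In the trend over weeks they numbered 15 with array weights, 12 with the slide as a block and 13 with no replicate block. Arrays of a time point did not all deviate together (correlations of −0.44 to 0.72, median 0.22, with 42 of 60 over 0.1), and without the replicate block no member was called between diets. The slide was not run as a block within a diet or for the change of the diet difference, since no slide is shared there.

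Members with an unadjusted p under 0.05 ranged, with 1 time point left out, from 3 to 11 for HFC against LFC over weeks 3 to 18 (11 without week 6), 3 to 8 for the 4 high fat diets (3 without week 3, 4 without week 12), 1 to 3 for HF5, 1 to 5 for the mean of the doses (5 without week 3, 3 without week 6), 1 to 8 for HF75 against HF5 (1 without week 12 or week 15, 8 without week 6), 1 to 13 for the change of the diet difference (1 without day 10, 3 without day 14, 4 without week 12, 13 without week 3), 7 to 17 within HFC (7 without day 6, 17 without week 3) and 0 to 5 for the trend (0 without week 18, 5 without week 3).

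Of 71 named differences, recomputed 1398 times, 20 turned sign at least once. For HFC against LFC over 10 time points, normexp gave Mmp9 −0.16, Mmp12 −0.042, Mmp28 −0.13, Timp1 0.075 and Lox −0.053. Quantile normalisation gave Mmp9 −0.15, Mmp19 −0.0075 and Timp1 0.010. Median scaling gave Mmp9 −0.13 and Timp1 0.11. Mmp9 was −0.36 with outlier spots kept, −0.18 with all probes averaged and −0.015 with no replicate block. Array weights gave Mmp9 −0.14, Mmp19 −0.17 and Loxl2 −0.043, and the slide block Timp1 0.0021. Without the 2 deviating arrays Mmp2 was −0.20, Adamts2 −0.12, Timp2 −0.021 and Lox −0.075. Without week 6 as well, chosen after seeing the data, Mmp2 was −0.015, Adamts2 −0.089 and Timp2 −0.10. Leaving out 1 time point gave ranges of −1.06 to 0.11 for Mmp13, −0.076 to 0.85 for Mmp2, −0.27 to 0.25 for Mmp9, −0.085 to 1.28 for Mmp12, −0.96 to 0.074 for Adamts1, −0.34 to 0.22 for Timp1, −0.028 to 0.31 for Timp2, −0.49 to 0.19 for Timp3, −0.41 to 0.035 for Timp4 and −0.048 to 0.33 for Lox.

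Over weeks 3 to 18, Mmp19 was −0.17 with normexp, −0.26 with quantile normalisation, −0.12 with median scaling, −0.21 with outlier spots kept and −0.060 with array weights. Mmp3 was 0.46 with quantile normalisation and 0.0052 with median scaling, and Timp3 −0.051 with array weights. Without the 2 deviating arrays Adamts1 was −0.12, Timp1 −0.088 and Timp3 −0.085, and without week 6 as well Mmp13 was −0.65, Adamts1 −0.18, Timp1 −0.18 and Timp3 −0.077. Leaving out 1 week gave −0.26 to 1.69 for Mmp13, −0.29 to 0.15 for Mmp3, −0.077 to 0.38 for Mmp19 and −0.12 to 0.68 for Timp1. The cause of these turns was not tested. The number of arrays, and for 7 members a signal seldom above background, limit what could be called.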
